A study of Rattus norvegicus with 12 samples.

Results

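The genes described here carry the dopamine and adenosine signal through cyclic AMP (cAMP) in the projection neurons of the rat striatum. They are the 9 genes Gpr6, Gnal, Gnb1, Gng7, Adcy5, Prkaca, Prkar1a, Prkar2b and Ppp1r1b, and all array probes carrying these names were taken, which gave 17 probes. The whole array named 35608 genes, of which 20398 had a probe that passed the filter on dim signals, and all 9 genes were among them. Gnb1 had 5 probes, Gnal had 3 and Prkar1a and Prkar2b had 2 each. The probes of Gnal, Prkaca and Prkar2b carry accessions that are not in the GRCr8 gene list, so these names rest on the array files alone. The probe with the highest mean signal stood for its gene, and the other probes were read separately.

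In a striatal projection neuron, some dopamine and adenosine receptors act through the olfactory-type G protein Golf, and others through Gi. Golf is built from the alpha subunit encoded by Gnal, the gamma subunit Gng7 and a beta subunit such as Gnb1. Golf drives adenylyl cyclase 5 (Adcy5), the main cAMP-forming enzyme of these cells, and cAMP frees the catalytic subunit of protein kinase A (PKA, Prkaca) from its regulatory subunits (Prkar1a, Prkar2b). PKA then phosphorylates DARPP-32 (Ppp1r1b), a phosphatase inhibitor in which dopamine and glutamate signals meet. Gpr6 is an orphan receptor of the indirect-pathway neurons that raises cAMP without a ligand. Loss of dopamine and its replacement with L-DOPA are known to alter this cascade, largely at the level of protein amount, place and phosphorylation, none of which an RNA array measures.

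The arrays came from 12 male rats, 1 array per rat, in 4 groups of 3. All rats had a 6-hydroxydopamine (6-OHDA) lesion, 9 µg in the left substantia nigra, so that no unlesioned striatum is among the arrays, and their strain and age were not given in the sources used here. The 6-OHDA group had the lesion alone. DOPA rats were also injected with L-DOPA (25 mg/kg with 12.5 mg/kg benserazide, 2 injections per day for 19 days). HFS rats had 5 days of continuous high-frequency stimulation of the subthalamic nucleus (STN-HFS, 130 Hz, 80 µs, 60 µA). DOPA/HFS rats had L-DOPA for 19 days with the stimulation over the last 5 of them. HFS and DOPA/HFS rats were anaesthetized again after the lesion to implant the electrode, and no implantation is described for 6-OHDA and DOPA rats. Stimulation and electrode surgery therefore cannot be told apart in any STN-HFS difference below. Tissue was punched from the dorsal striatum, and in such bulk tissue fewer cells of a type and less RNA per cell cannot be told apart. The 4 arrays that share a replicate number, 1 from every group, lay on one of 3 slides. The place of an array on its slide went with its group, so place and group cannot be told apart.

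The arrays were uneven in several respects that touch these genes. Of 14 projection neuron markers on the array, 13 were well above background on every array, and the mean log2 signal of that list ran from 13.83 to 14.27. The summed signal of 11 choroid plexus markers, a tissue of the neighbouring ventricle, was 391 to 789 in 6-OHDA, 4596 to 90883 in HFS, 434 to 16938 in DOPA and 313 to 1123 in DOPA/HFS. The share of spots well above background was 60.3% to 63.2% in HFS and 60.0% to 62.8% in DOPA/HFS, against 53.8% to 58.9% in 6-OHDA and 50.5% to 58.0% in DOPA, so that every stimulated array was above every other. DOPA/HFS replicate 3 had 4175 spots marked as outliers, against 2 to 25 on the other arrays. DOPA/HFS replicate 1 stood apart from its group for the neuropeptide gene Trh, at a log2 signal of 7.82 against 10.50 and 11.03 in the other 2 arrays, 10.61 to 10.77 in DOPA and 8.00 to 8.07 in 6-OHDA, so the differences of DOPA/HFS from 6-OHDA and from DOPA printed for single genes are also given without it. The part of these differences in the values below was not tested, except where a value without an array is given.

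The promoter of a gene can carry the cAMP response element, the DNA site through which PKA acts on transcription by way of CREB. The full element TGACGTCA and its core TGACG were searched on both strands in the 250 bases before the start site, in the promoter table of RefSeq for the rat build GRCr8, which held 8 of the 9 genes. The core is contained in the full element. A single start site was searched for each gene. For Gnb1 and Gng7 its window lay inside the gene, and for Prkar2b most of the window did. In these windows the full element was found in Gpr6 only, and the core in Gpr6 and Prkaca. Of 33469 promoters in the table, 1.59% held the full element and 18.2% the core. Both windows are shown 5′ to 3′ on the gene's own strand because they are the only ones of the set with these letters, which are in capitals. The Gpr6 window is chr20:46075252-46075501 and that of Prkaca chr19:41083190-41083439, both on the minus strand.
Gpr6: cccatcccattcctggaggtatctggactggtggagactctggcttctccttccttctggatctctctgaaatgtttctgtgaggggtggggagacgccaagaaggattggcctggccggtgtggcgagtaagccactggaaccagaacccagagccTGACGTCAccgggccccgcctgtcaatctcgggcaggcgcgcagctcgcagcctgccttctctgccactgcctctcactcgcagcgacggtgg
Prkaca: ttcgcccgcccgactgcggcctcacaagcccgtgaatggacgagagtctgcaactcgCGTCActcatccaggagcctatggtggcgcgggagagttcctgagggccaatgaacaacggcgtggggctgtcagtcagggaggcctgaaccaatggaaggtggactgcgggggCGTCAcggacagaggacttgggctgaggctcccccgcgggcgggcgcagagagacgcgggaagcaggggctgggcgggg
In Gpr6 the element began 93 bases before the start site, and Prkaca held the core 2 times. A match of letters is a description and does not show that the site is used.

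No gene of the set passed the test in any comparison. A gene was called at a limma adjusted p (Benjamini-Hochberg over 20398 genes) under 0.1 together with a fold over 1.2 or under 0.8, and 0 of the 9 genes were called in HFS, DOPA or DOPA/HFS against 6-OHDA, in DOPA/HFS against DOPA or HFS, in the main effects of L-DOPA and of STN-HFS, in their interaction or in the F test across 4 groups. This was read against few calls on the whole array: 0.0049% of the genes, which is 1 gene, in DOPA against 6-OHDA, in the L-DOPA main effect and in the F test, and 0% in each other comparison. At an unadjusted p under 0.05 the set also had 0 of 9 in each comparison, where the background was 2.34% of all genes for HFS, 2.58% for DOPA and 2.75% for DOPA/HFS against 6-OHDA. The same background was 3.78% for DOPA/HFS against DOPA, 2.44% for DOPA/HFS against HFS, 2.74% for the L-DOPA main effect, 4.36% for the STN-HFS main effect, 1.98% for the interaction and 2.81% for the F test. Beside backgrounds this low, 0 of 9 is not a result about the set.

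The size of difference that the design could show is given by the intervals. Against 6-OHDA the 95% interval reached between 0.32 and 0.68 log2 units to each side of the estimate, depending on the gene, and every interval included 0. The median log2 difference of the 9 genes was 0.11 with HFS, 0.02 with DOPA and -0.04 with DOPA/HFS, against 0.01, -0.01 and -0.01 over all tested genes. Without DOPA/HFS replicate 1 the last pair of medians was -0.15 and -0.03. Of the 9 estimates, 5 were above 0 with HFS, 5 with DOPA and 3 with both treatments. These comparisons share the 6-OHDA arrays.

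**Figure D1:**
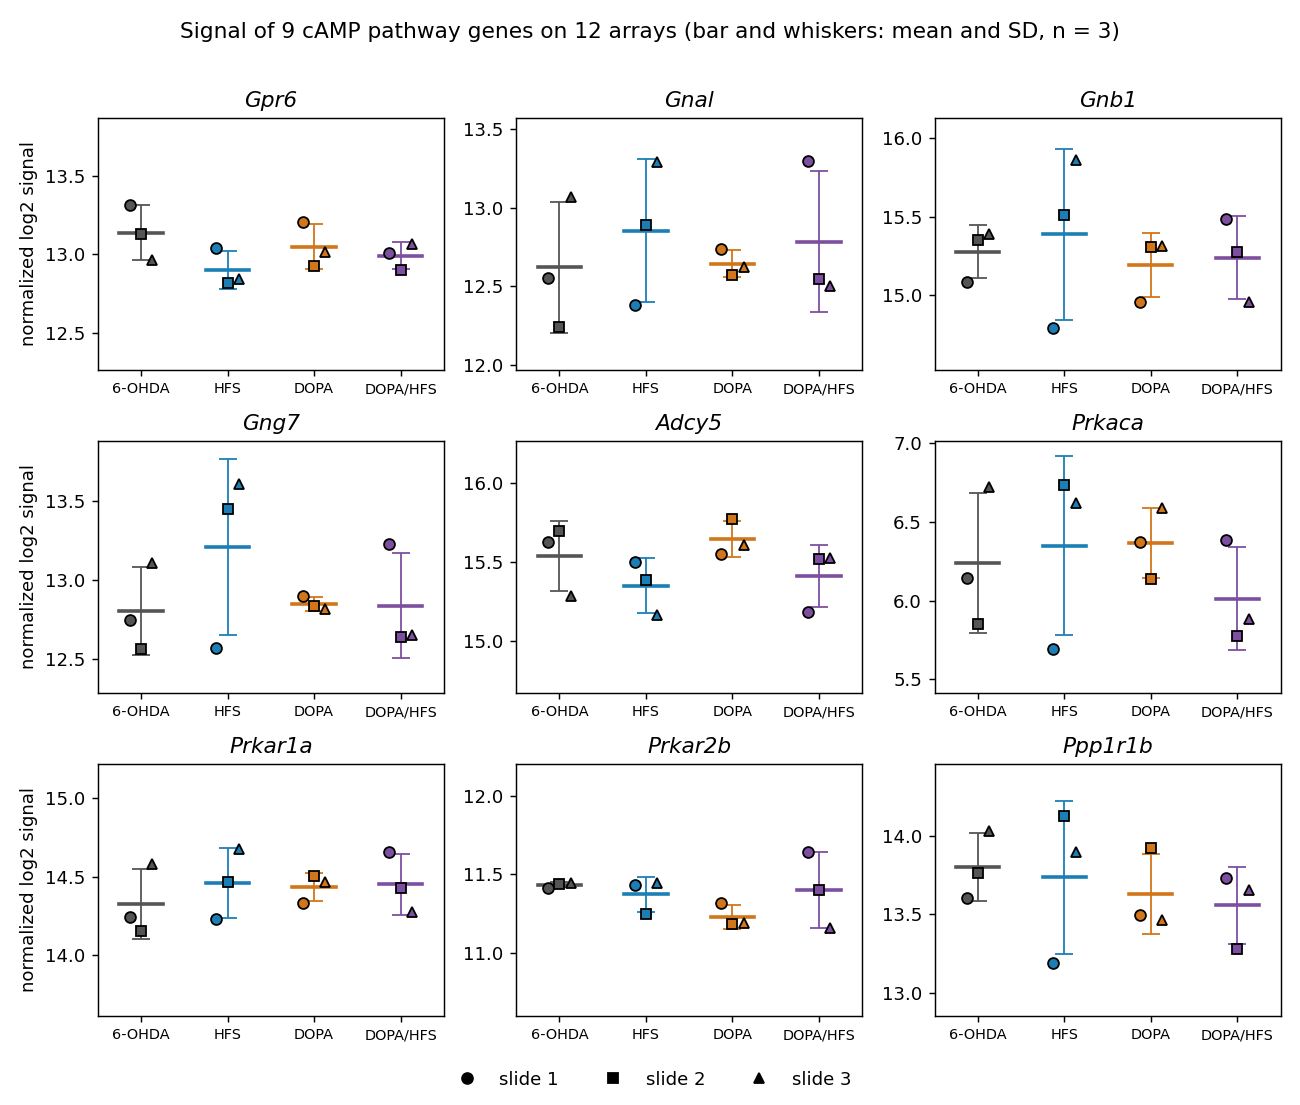
Normalized log2 signal (y axis, every panel spanning the same number of log2 units) of the 9 genes in the 4 groups, each point 1 array with its slide shown by shape, bars and whiskers the mean and SD of 3 arrays. The groups overlap in every panel except Prkar2b, where the DOPA arrays lie below the 6-OHDA arrays, and Adcy5, where the HFS and the DOPA/HFS arrays lie below the DOPA arrays.

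**Figure D2:**
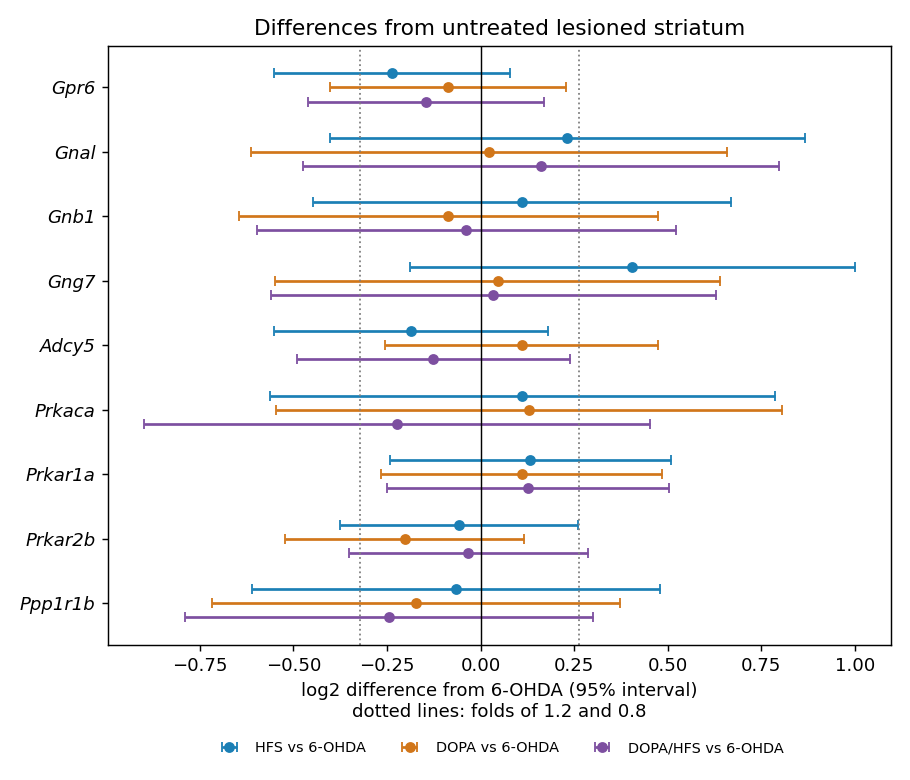
Log2 difference of each treated group from 6-OHDA (x axis) for the 9 genes (y axis), with points the limma estimates, lines their 95% intervals and dotted lines the fold limits of 1.2 and 0.8. Every interval includes 0, and the widest reaches 0.68 to each side.

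Gpr6, the receptor of the set, had an SD of 0.15 log2 units over the 12 arrays, against a median of 0.27 over all tested genes. It read 13.32, 13.13 and 12.96 on the 6-OHDA arrays and 13.04, 12.82 and 12.84 on the HFS arrays. It was 13.21, 12.92 and 13.02 with DOPA and 13.01, 12.90 and 13.07 with DOPA/HFS. The 6-OHDA group had the highest mean and HFS the lowest, but the ranges overlapped. The HFS arrays were at 0.849 of the 6-OHDA level (95% interval 0.682 to 1.06), a log2 difference of -0.24 (SE 0.14) with a limma adjusted p of 0.998. Within slides the HFS array was below its 6-OHDA partner on all 3, by -0.28, -0.31 and -0.12 log2 units. That sign on all 3 slides was found in 14.4% of the genes, and in 2 of the 9 genes here, the other being Adcy5. The main effect of STN-HFS over 6 against 6 arrays was -0.15 for Gpr6, with an exact two-sided permutation p of 0.082 and a limma adjusted p of 0.911.

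Gnal, the alpha subunit of Golf, varied more between rats than between groups. The arrays read 12.55, 12.24 and 13.07 in 6-OHDA and 12.38, 12.89 and 13.29 in HFS. In DOPA it was 12.74, 12.57 and 12.62, and in DOPA/HFS 13.30, 12.55 and 12.50. The DOPA group was tight, while each other group held 1 array at or above 13.07. Group accounted for 8.6% of the variance over the 12 arrays and slide for 15.0%, where the medians over all tested genes were 21.1% and 21.0%. The log2 difference from 6-OHDA was 0.23 with HFS, 0.02 with DOPA and 0.16 with DOPA/HFS (SE 0.29 each), and the last was -0.10 without DOPA/HFS replicate 1. The HFS difference of Gnal was 0.47 without HFS replicate 1 and 0.01 without HFS replicate 3. The 3 Gnal probes followed each other over the arrays (Pearson r 0.88 to 0.92, a description, since they share the same RNA). Their HFS differences were 0.23, 0.06 and 0.01.

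Gng7, the gamma subunit that pairs with Golf alpha in striatum, had the largest log2 difference from 6-OHDA among the 9 genes by the brightest probe of each. Its signal was 12.74, 12.56 and 13.11 in 6-OHDA and 12.57, 13.45 and 13.61 in HFS. In DOPA it was 12.90, 12.83 and 12.82, and in DOPA/HFS 13.23, 12.64 and 12.65. HFS held both the 2 highest arrays of the study and 1 of the lowest, and its range overlapped that of 6-OHDA. HFS was at 1.33 times the 6-OHDA level (log2 difference 0.41, SE 0.27, limma adjusted p 0.998). Without HFS replicate 1 the log2 difference of Gng7 was 0.73, with an unadjusted limma p of 0.00831 and an adjusted p of 0.877, and without HFS replicate 3 it was 0.21, so single arrays moved the estimate by over 1.5 times in both directions, with no call. HFS replicate 1 was also the array with the lowest log2 signal of the 12 for Gnb1 (14.79), Ppp1r1b (13.19) and Prkaca (5.69). It was the HFS array with the highest signal of the choroid plexus marker Ttr, at 16.30 against 11.86 and 15.28.

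Gnb1, a beta subunit used by many G proteins, was read by 5 probes that did not move together. The brightest had log2 signals of 15.08, 15.35 and 15.39 in 6-OHDA, 14.79, 15.51 and 15.86 in HFS, 14.96, 15.30 and 15.31 in DOPA and 15.48, 15.28 and 14.96 in DOPA/HFS. These groups overlapped, and HFS was both the lowest and the highest. Its log2 difference from 6-OHDA was 0.11 with HFS, -0.09 with DOPA and -0.04 with DOPA/HFS (SE 0.25). The HFS difference of Gnb1 was 0.41 without HFS replicate 1 and -0.13 without HFS replicate 3, and the DOPA/HFS difference was -0.16 without DOPA/HFS replicate 1. On probe A_44_P927153 the signal was 10.19, 9.87 and 9.78 in 6-OHDA and 9.13, 9.61 and 9.66 in HFS, so that all HFS arrays were below all 6-OHDA arrays. On A_44_P468372 it was 11.14, 10.97 and 11.21 in 6-OHDA and 11.40, 11.26 and 11.49 in HFS, so that all HFS arrays were above. The log2 differences were -0.48 (SE 0.23) and 0.27 (SE 0.15), each with an exact permutation p of 0.1, the smallest that 3 against 3 arrays can give, and a limma adjusted p of 0.999.

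All 5 probes carry the same RefSeq transcript in the files, and the files do not state which part of it each reads or whether a probe also matches a related gene. Of 24213 probes with values on these 6 arrays, 4.96% did not overlap between HFS and 6-OHDA in either direction. Between probes the Pearson r over 11 arrays ran from -0.34 to 0.92: the brightest followed A_44_P802937 (0.92), A_44_P468365 followed A_44_P468372 (0.81), and A_44_P927153 had an r of at most 0.35 with any of them. DOPA/HFS replicate 3 is missing from these r, since its spot on A_44_P468365 was marked as an outlier. With every probe as its own feature, 0 of the 17 probes were called in the 3 comparisons with 6-OHDA, where the background over 24239 probes was 0% for HFS, 0.00413% for DOPA and 0% for DOPA/HFS. At an unadjusted p under 0.05 the count was also 0 of 17, with backgrounds of 2.23%, 2.48% and 2.68%.

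**Figure D3:**
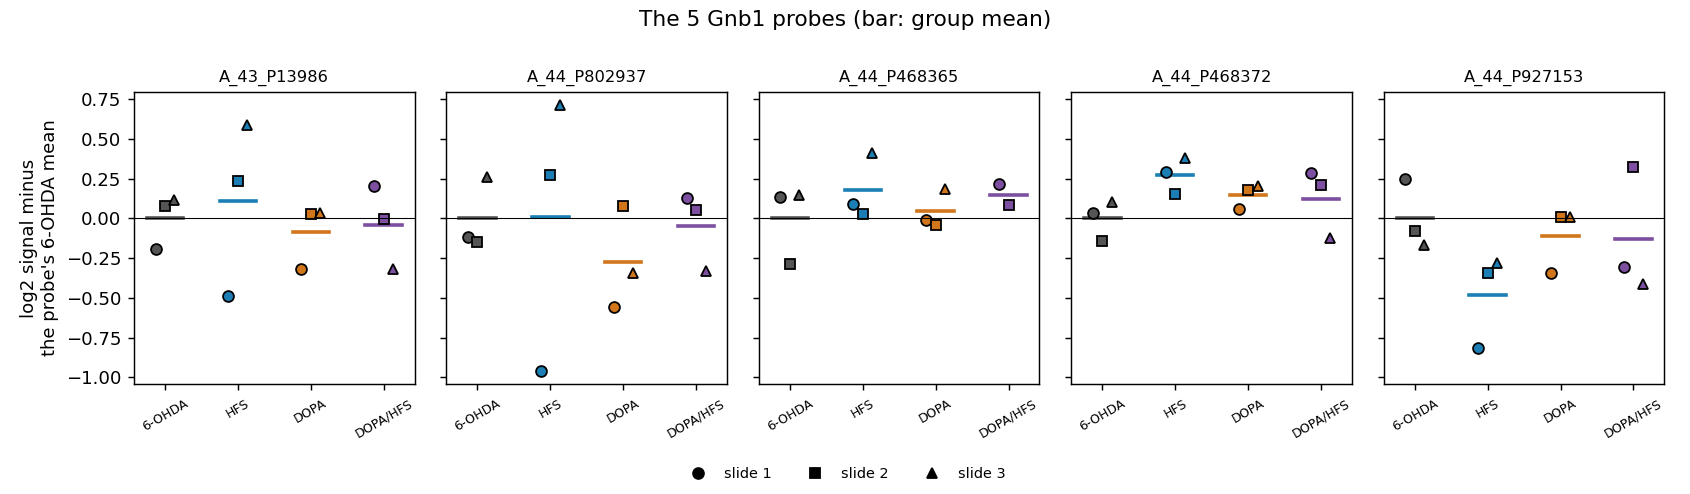
Log2 signal of the 5 Gnb1 probes minus each probe's own 6-OHDA mean (y axis) in the 4 groups, each point 1 array and each bar a group mean. HFS lies below 6-OHDA on A_44_P927153 and above it on A_44_P468372, and the groups overlap on the other 3 probes.

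Adcy5, the striatal adenylyl cyclase, ran opposite to Gnal from array to array. Its values were 15.63, 15.70 and 15.28 in 6-OHDA and 15.50, 15.39 and 15.16 in HFS. In DOPA it was 15.55, 15.78 and 15.61, and in DOPA/HFS 15.18, 15.52 and 15.52. The order of the group means was DOPA, 6-OHDA, DOPA/HFS and HFS, and each neighbouring pair overlapped. All 3 DOPA/HFS arrays were below all 3 DOPA arrays, by a mean log2 difference of -0.24 (SE 0.17, exact permutation p 0.1, limma adjusted p 1), and the difference was -0.12 without DOPA/HFS replicate 1. Such a split was found in 9.42% of the genes with values in both groups, and in DOPA/HFS against HFS in 6.37% of genes and 0 of the 9.

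Among the brightest probes of the 9 genes, the lowest unadjusted p belonged to Adcy5. With every probe as its own feature, Gnb1 probes A_44_P927153 and A_44_P468372 had lower limma p-values in HFS against 6-OHDA (0.0592 and 0.0912). For Adcy5 the 6 arrays with STN-HFS averaged 15.38 and the 6 without it 15.59. The log2 difference was -0.21 (95% interval -0.47 to 0.05), and -0.15 without DOPA/HFS replicate 1. The limma p was 0.0995 and the adjusted p 0.911, and the exact permutation p was 0.0563. The HFS arrays were below their 6-OHDA partners on all 3 slides (-0.12, -0.31 and -0.12), and the DOPA/HFS arrays below their DOPA partners on all 3 (-0.37, -0.26 and -0.09). Signs of this kind were found in 14.4% and 14.3% of genes. The same 6 arrays had the higher shares of spots well above background, and the part of that in the result was not tested.

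Prkaca, the catalytic subunit of PKA, was read by a single probe printed 10 times on each array, and each array's value is the mean of those spots. That mean was 6.14, 5.85 and 6.72 in 6-OHDA, 5.69, 6.74 and 6.62 in HFS, 6.37, 6.14 and 6.59 in DOPA and 6.39, 5.77 and 5.88 in DOPA/HFS. All groups overlapped. The 10 spots of an array had an SD of 0.07 to 0.33 log2 units, and the SD between the 12 arrays was 0.38. The log2 difference from 6-OHDA was 0.11 with HFS, 0.13 with DOPA and -0.22 with DOPA/HFS (SE 0.31), the last being -0.41 without DOPA/HFS replicate 1 and 0.02 without 6-OHDA replicate 3.

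Prkar1a, a regulatory subunit of type I PKA, had log2 signals of 14.24, 14.15 and 14.58 in 6-OHDA and 14.23, 14.46 and 14.68 in HFS. In DOPA they were 14.33, 14.50 and 14.46, and in DOPA/HFS 14.65, 14.43 and 14.27. The 4 group means lay within a log2 range of 14.32 to 14.46. The log2 difference from 6-OHDA was 0.13 with HFS, 0.11 with DOPA and 0.13 with DOPA/HFS (SE 0.17), with limma adjusted p-values of 0.998, 1 and 1, and the last difference was 0.03 without DOPA/HFS replicate 1. Its other probe gave 0.13, 0.26 and 0.26 (SE 0.17), and the 2 probes followed each other only loosely (r 0.29).

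Prkar2b is the regulatory subunit of type II PKA that is abundant in striatal neurons. By the brightest probe of each gene, it alone had a treated group wholly to one side of 6-OHDA, the DOPA group. The signal was 11.41, 11.44 and 11.44 in 6-OHDA and 11.31, 11.18 and 11.19 in DOPA. In HFS it was 11.43, 11.25 and 11.44, and in DOPA/HFS 11.64, 11.40 and 11.16. All 3 DOPA arrays were below all 3 6-OHDA arrays, at 0.869 of their level (95% interval 0.697 to 1.08; log2 difference -0.20, SE 0.15). The exact permutation p was 0.1, the smallest possible here, and the limma adjusted p was 1. Groups that did not overlap were found in 6.27% of genes for DOPA against 6-OHDA, in 5.13% for HFS and 4.19% for DOPA/HFS, where 0 of the 9 genes were split. On the second Prkar2b probe the DOPA arrays read 10.92, 10.97 and 11.03 against 11.19, 10.89 and 11.15 in 6-OHDA, a log2 difference of -0.10 (SE 0.15) with overlapping groups. Within slides the DOPA array was lower on all 3 for Prkar2b (-0.10, -0.26 and -0.25) and for the brightest Gnb1 probe (-0.13, -0.05 and -0.08). That sign was found in 12.1% of genes. On Gnb1 probe A_44_P468372 the DOPA array was higher on all 3 slides, at 11.17, 11.29 and 11.31 against 11.14, 10.97 and 11.21.

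Ppp1r1b, which encodes DARPP-32, had overlapping groups throughout. On the log2 scale it read 13.61, 13.76 and 14.03 in 6-OHDA and 13.19, 14.12 and 13.89 in HFS. In DOPA it was 13.50, 13.92 and 13.46, and in DOPA/HFS 13.73, 13.28 and 13.66. The HFS arrays spanned both the lowest and the highest value of the study. The means ran from 13.80 in 6-OHDA through 13.73 in HFS and 13.63 in DOPA to 13.56 in DOPA/HFS, and each step was smaller than the spread within the groups. DOPA/HFS was at 0.844 of the 6-OHDA level (95% interval 0.579 to 1.23; log2 difference -0.24, SE 0.25, limma adjusted p 1), and the log2 difference was -0.33 without DOPA/HFS replicate 1. The L-DOPA main effect on Ppp1r1b was -0.18, with an exact permutation p of 0.316.

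The interaction term asks whether the STN-HFS difference depends on L-DOPA, and 0 of the 9 genes passed it (limma adjusted p 1 for each). The estimates ran from -0.46 log2 units for Prkaca to 0.23 for Prkar2b (-0.65 for Prkaca and 0.11 for Prkar2b without DOPA/HFS replicate 1), with 95% intervals that reached 0.45 to 0.96 units to each side.

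Across the 12 arrays the genes did vary with one another. Of the 36 pairs, 14 had a Pearson r with a permutation p (100000 resamples) that stayed under 0.05 after Benjamini-Hochberg adjustment over the 36, 10 of them above 0 and 4 below. The weakest of the 14 had an absolute r of 0.66. That size was reached by 8.86% of all pairs among the 18350 genes measured on all arrays (4.66% above 0 and 4.2% below). It was reached by 38.9% of the pairs of members, which restates 14 of the 36, since the limit was taken from them. The share of all pairs was computed with quantile normalization only, so the contrast is a description and was not tested. Gnal, Gng7, Prkar1a, Prkaca and Gnb1 were each above their own median on 6-OHDA replicate 3, HFS replicate 3 and DOPA/HFS replicate 1. Adcy5 had its 3 lowest values on those arrays. The strongest pair above 0 was Gnal and Prkar1a (r 0.89, permutation p 0.0001, adjusted p 0.0036; Spearman rho 0.88, adjusted p 0.00516), followed by Gnal and Gng7 (r 0.89, permutation p 0.00032, adjusted p 0.00384; rho 0.95, adjusted p 0.00072). The strongest below 0 was Adcy5 and Gnal (r -0.88, permutation p 0.00032, adjusted p 0.00384), whose rho was -0.64 with an adjusted p of 0.0727.

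By Spearman's rho 5 of the 14 pairs passed: Gnal with Gng7, Prkar1a and Prkaca, and Gng7 with Prkar1a and Prkaca. Without the 2 arrays farthest from the median of the first gene, r was 0.80 for Gnal and Prkar1a, 0.85 for Gnal and Gng7 and -0.71 for Adcy5 and Gnal. With group and slide means removed the values were 0.95, 0.97 and -0.95. Other pairs rested more on the 2 farthest arrays: r went from 0.68 to 0.41 for Gnal and Gnb1 and from -0.70 to -0.39 for Adcy5 and Prkar1a. A slide or group alone holds too few arrays for an r of its own. Among the 14 pairs Prkar2b was in none, and Gpr6 only in that with Prkar1a (r -0.66, adjusted permutation p 0.0486). With group and slide means removed, r with Prkar2b ran from -0.74 (Adcy5) to 0.75 (Gnb1). In the same way r with Gpr6 ran from -0.89 (Prkar1a) to 0.79 (Adcy5). The 14 pairs became 5 when each array was scaled to its 75th percentile in place of quantile normalization, 9 in the authors' log2 table and 10 without DOPA/HFS replicate 1. The 3 pairs Adcy5 and Gnal, Gnal and Gng7, and Gng7 and Prkaca passed in all 4, while Gnal and Prkar1a had an r of only 0.39 with the 75th percentile. With that scaling Gpr6 passed with Adcy5 (r 0.76, adjusted permutation p 0.0407) and not with Prkar1a (adjusted permutation p 0.213). In the authors' log2 table the r of Gpr6 and Prkar1a was -0.03.

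Several members also varied with many other genes, and others with few. Gnal had an r of 0.8 or more with 6.18% of the 18349 genes measured on all arrays and of -0.8 or less with 5.78%, and for Adcy5 these shares were 5.04% and 3.65%. They were 2.92% and 3.03% for Gng7, 3.06% and 2.51% for Prkar1a and 1.65% and 0.828% for Prkaca. Gnb1 (0.496% and 0.36%), Ppp1r1b (0.485% and 0.856%), Prkar2b (0.409% and 0.109%) and Gpr6 (0.158% and 0.0708%) had low shares. Among the genes most like a member over the 12 arrays were Fem1c for Adcy5 (r 0.98), Phf3 for Gnal (0.98), Dlgap1 for Gnb1 (0.94), Napa for Prkaca (0.95), Nsf for Prkar1a (0.96) and Chd4 for Prkar2b (0.91). Gpr6 was most like the transcript TC554556 (0.92). For Ppp1r1b they were Lrrn2 (0.94), Phyhip (0.94), Cln3 (0.94), LOC687202 (0.93) and Fkbp8 (0.91). These are the highest of 18349 values each and are given as descriptions.

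Gnal was then set beside 10 measures of the arrays, a family chosen after its values were seen. It followed the mean log2 signal of the oligodendrocyte markers (r 0.75, permutation p 0.00522, adjusted over 10 measures 0.0299; 0.77 without the 2 arrays farthest out) and of the projection neuron markers (r 0.75, permutation p 0.00599, adjusted 0.0299; 0.76). Spearman's rho was 0.71 and 0.75, with an adjusted p of 0.0585 for each. The projection neuron list contains Ppp1r1b. With the markers of cortical neurons, astrocytes, microglia, endothelium and ependyma r was 0.07 to 0.57 (adjusted permutation p 0.127 to 0.82). With the choroid plexus markers r was 0.16 (adjusted permutation p 0.694), and with the share of spots well above background 0.30 (adjusted permutation p 0.497). With the 75th percentile of an array before scaling it was 0.60 (adjusted permutation p 0.127). Without the 2 arrays farthest out on the measure, r was 0.71 for the share of spots and 0.77 for the 75th percentile. For the marker lists other than oligodendrocytes and projection neurons it was then -0.17 to 0.29. The part of tissue make-up or of signal strength in the co-variation was not tested.

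**Figure D4:**
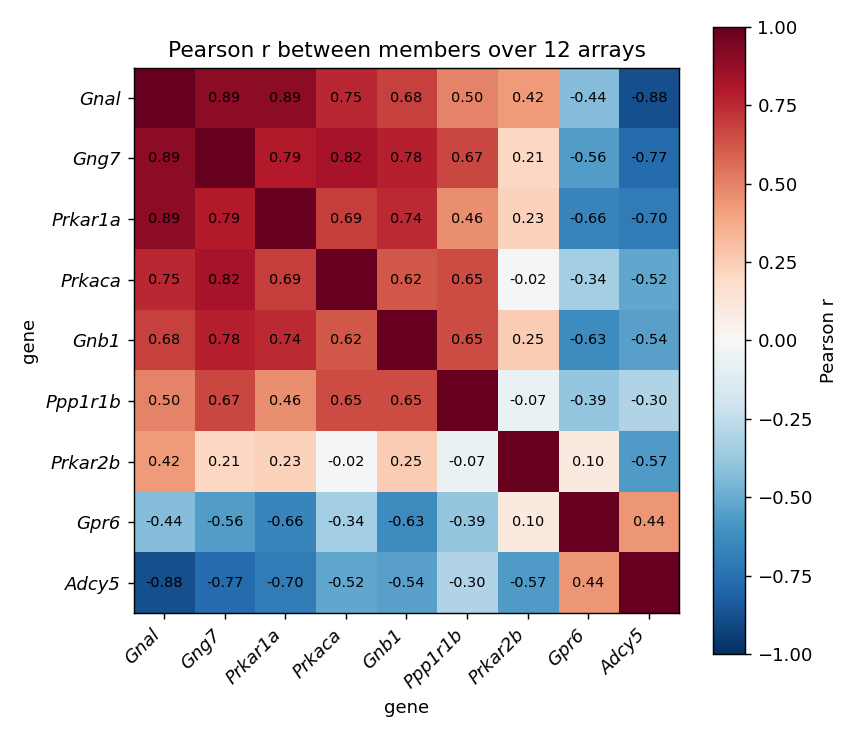
Pearson r (colour and printed value) between each pair of the 9 genes over the 12 arrays, genes on both axes. Gnal, Gng7, Prkar1a, Prkaca, Gnb1 and Ppp1r1b form a block above 0, and Adcy5 and Gpr6 lie below 0 against them.

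**Figure D5:**
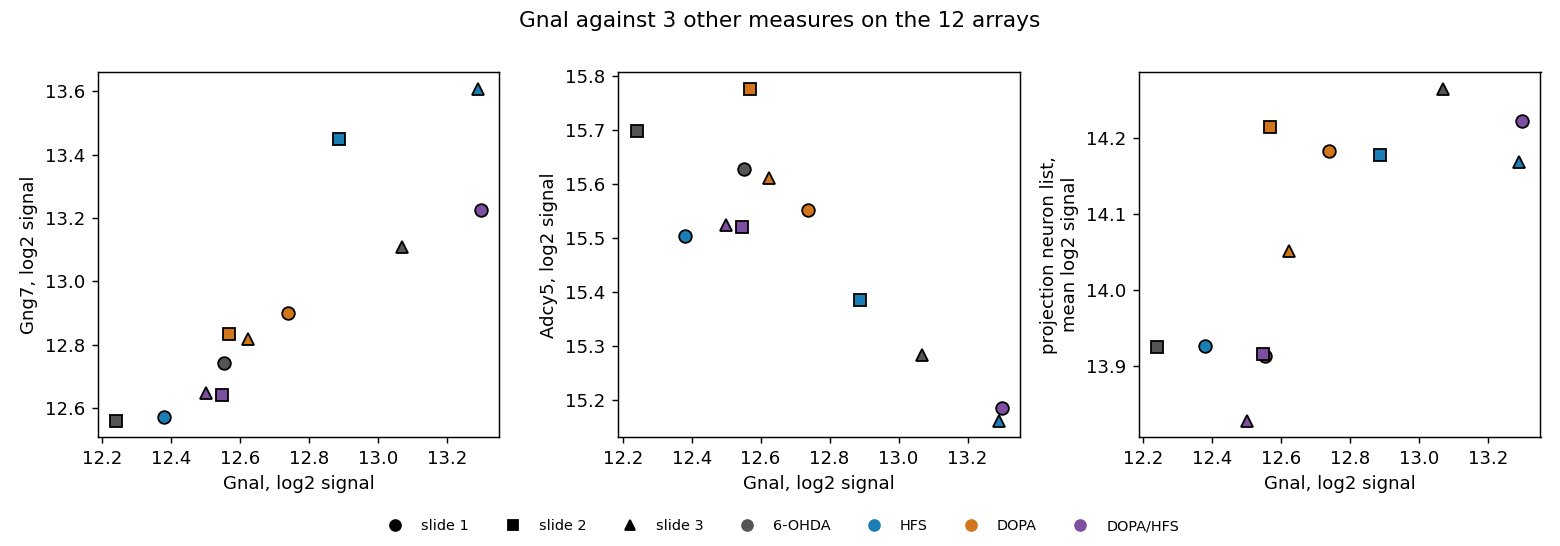
Log2 signal of Gnal (x axis) against that of Gng7, that of Adcy5 and the mean log2 signal of the projection neuron markers (y axes), each point 1 array with group as colour and slide as shape. Gng7 increases and Adcy5 decreases with Gnal (r 0.89 and -0.88), and arrays of each group are spread along both lines, the DOPA arrays least.

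The wider pathway was read from 7 lists with 127 entries, of which 107 were tested. None was called in the 5 comparisons of pairs of groups or in the main effects. At an unadjusted p under 0.05 the count against 6-OHDA was 0 for HFS, 3 for DOPA (2.8%) and 2 for DOPA/HFS (1.87%), beside the 2.34%, 2.58% and 2.75% of all genes. The 3 in DOPA were the cannabinoid receptor Cnr1 and the phosphodiesterases Pde7b and Pde1c, and each had 3 DOPA arrays above all 6-OHDA arrays. Such a split, in either direction, was found in 6.27% of genes. These 3 were picked by their p in the same comparison, so the split adds no support. Cnr1, which couples to Gi and lowers cAMP, had mean log2 signals of 12.15 in DOPA and 11.27 in 6-OHDA (difference 0.88, SE 0.33, limma adjusted p 1). Pde7b and Pde1c, which break down cyclic nucleotides, had differences of 0.44 (SE 0.19) and 0.72 (SE 0.32), with limma adjusted p-values of 1. Single arrays carried much of this: without 6-OHDA replicate 2 the Pde1c difference was 0.28, and without 6-OHDA replicate 3 that of Cnr1 was 0.53.

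The 2 in DOPA/HFS were Ric8a and Ppp3ca. Ric8a, a chaperone of G alpha subunits, had a difference of -0.65 (SE 0.30, limma adjusted p 1), which was -0.38 without DOPA/HFS replicate 1. Ppp3ca, the catalytic subunit of calcineurin that dephosphorylates DARPP-32, had one of -0.37 (SE 0.16, limma adjusted p 1), and -0.43 without that array. Ppp3ca was below all 6-OHDA arrays in DOPA/HFS and in HFS as well, where its difference was -0.22 (SE 0.16). Groups that did not overlap were found in 4.19% and 5.13% of genes for these comparisons, and Ppp3ca was picked by its p in DOPA/HFS. In HFS its highest array read 15.7435 and the lowest 6-OHDA array 15.7438. The receptor list (17 tested) had a median log2 difference of -0.09 for HFS, 0.04 for DOPA and 0.02 for DOPA/HFS, and its member Gpr12 had its largest difference, -0.43, with HFS (limma adjusted p 0.998). Among alpha subunits (11 tested) Gna11 in DOPA/HFS was at -0.47 (2 arrays, the value of 1 being an outlier spot), Gnai2 at -0.26 (-0.47 and -0.17 without DOPA/HFS replicate 1) and Gnaz in HFS at -0.28. Among beta and gamma subunits (12 tested) Gnb3 in DOPA was at 0.69, on a probe well above background on 7 arrays, Gnb5 in DOPA/HFS at -0.28 and Gng2 there at -0.45 (-0.31 and -0.51 without replicate 1).

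For the cyclases and Golf regulators (11 tested) the other named genes were Adcy9, at -0.31 in DOPA/HFS (-0.40 without replicate 1), and Adcyap1r1, at 0.35 in HFS. For PKA subunits, inhibitors and anchors (15 tested) they were the anchor Akap5, at -0.47 in DOPA/HFS (-0.67 without replicate 1), Prkx, at -0.27 in HFS, and Akap10, at -0.33 in HFS. For relatives, kinases and phosphatases of DARPP-32 (22 tested) they were Ppp2r3a, at -0.54 in DOPA, and Csnk1d, at 0.33 in HFS. The list of cAMP breakdown and targets (19 tested) also named Creb1, the cAMP-responsive transcription factor, at 0.61 in DOPA/HFS (0.65 without replicate 1, and 0.24 without 6-OHDA replicate 2). None of these passed the limma test, with adjusted p-values of 0.998 or 1, and leaving out any 1 array brought no named gene to a call.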

How the data were processed

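Gene expression was measured in dorsal striatum of 12 rats (4 groups of 3 animals, per the labels) on single-colour Agilent arrays. The intensity values are those the authors deposited as scanner output of Agilent Feature Extraction 9.1, background-subtracted and not normalized between arrays. A series table, also deposited, holds log2 values after the authors' quantile normalization and served as an alternative. Groups were taken from the sample labels.

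Control spots and spots marked as outliers were left out. Signals were taken to log2, quantile normalized and averaged per probe. A probe was kept if the scanner called it well above background on a share of 0.4 of arrays or more (24239 of 41012 probes), and the brightest probe stood for a gene. Genes of the set took their names from the files. Other probes took the symbol that the GRCr8 gene list gives for their accession, or else the name in the files. A RefSeq accession was present for 24824 probes, 10735 of which that list still holds. All 12 arrays were fitted with limma 3.58.1 in R 4.3.3 (data.table version 1.17.8, jsonlite 2.0.0). limma stands in for SAM, which the methods used. Permutation tests were two-sided. The exact tests of group differences took all splits of the compared arrays in R, without regard to slide or to the other treatment. Those of correlations were done with numpy and scipy. Before use, the fitting code was tested on simulated data. As arrays give no read depth, the number of arrays limits the precision. No member spot was saturated.

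The genes and the lists were chosen with earlier results of these data known. The rule for names was: every member, and of each pathway list the genes called or else the 3 with the largest moderated t against 6-OHDA in any of 3 comparisons, and for each member the gene with the highest r (for Ppp1r1b the 5 highest). Of the genes this rule names, 2 are not reported here. Cell markers were summed per array. Alternatives covered scaling, background correction, dim probes, probe choice, outlier spots, the replicate block, thresholds and leaving out each array.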

Additional observations from a re-analysis of the deposited data

How the results depend on the processing

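The count of members called was 0 in all 8 comparisons and in the F test, and it stayed 0 under each alternative run for it: scaling to the 75th percentile, normexp background correction, the authors' log2 values, dim probes kept, or required above background on all 3 arrays in some group, a gene's probes averaged, outlier spots kept, fits on the compared arrays alone, a stricter adjusted p of 0.05, calls without a fold limit, calls by fold and groups that do not overlap, and leaving out each of the 12 arrays in turn (0 to 0). The main effects and the interaction were not refitted on the compared arrays alone or called by groups that do not overlap. The F test had neither of these nor a fold limit. In the refits with the adjusted p and fold limits, the calls over all genes ran from 0 to 28. The 28 were of 20396 genes, for the L-DOPA main effect without DOPA/HFS replicate 1. By fold and groups that do not overlap, the lowest count was 512 of 20398 genes, for DOPA/HFS against 6-OHDA. The highest was 1139, for DOPA/HFS against DOPA. Beside these low backgrounds, a count of 0 members is not a result about the set. The count over the 17 probes was 0 and stayed 0 under 75th percentile scaling, the authors' log2 values, the block and each array left out (0 to 0), the alternatives run for it. With the replicate block (the slide) the count of members called was also 0, and so was that of probes. Same-numbered arrays deviated together only in part: r of their deviations from the group means ran from -0.29 to 0.48 over 18 pairs, with 10 above 0.1. Between arrays of different groups and different numbers it ran from -0.45 to 0.54 over 36 pairs, with 7 above 0.1. The median r was 0.11 for same-numbered pairs and -0.07 for the others.

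Of 1485 single log2 differences recomputed, 0 had an adjusted p under 0.1, 7 had an unadjusted p under 0.05, 114 changed sign and 1 moved by over 1 SD between replicates (the Adcy5 interaction, 0.14 with the 75th percentile). Of the 7, 4 were Gng7 without HFS replicate 1 (limma p 0.00831 to 0.0369), and the others were Prkaca in DOPA/HFS against HFS without that array (0.0365) and of the STN-HFS main effect on Adcy5 with normexp (0.0406) and without 6-OHDA replicate 3 (0.0379). Gnb1 probe A_44_P927153 had HFS differences of -0.58 to -0.31 with 1 array left out, and an unadjusted p of 0.0317 without DOPA/HFS replicate 2 and 0.0496 without HFS replicate 3. The correlated pairs fell from 14 to 5 with the 75th percentile and to 9 in the deposited table, of which 4 and 8 were among the 14, and 10 without DOPA/HFS replicate 1 (chosen after seeing the data). The cause was not tested. The deposited table shifted the median of all genes in DOPA/HFS against 6-OHDA by -0.12.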
